A study of Mus musculus with 128 samples.

Results

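Reproductive white adipose tissue of SM/J mice on a low-fat diet was compared between 30 and 20 weeks of age, with 4 females and 4 males at each age. These 16 of the 128 libraries of the series were taken by their labels for strain, diet, tissue and age, and no measured value was used to choose them. The series, on how SM/J mice regain control of blood sugar with age on a high-fat diet, profiled RNA of interscapular brown fat and reproductive white fat in SM/J and LG/J mice, 2 inbred strains, on a high-fat or low-fat diet at both ages. The labels name no mutation, transgene, drug or cold exposure in any group, and housing temperature and body weight are not given in the sources used here. Each library is taken as 1 animal, named below by its number in the labels, and p-values measure the spread between these animals.

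White adipocytes store fat in 1 large droplet, whereas brown adipocytes, and the beige adipocytes that can appear among white ones, burn it to make heat. Noradrenaline acts on β-adrenergic receptors, cyclic AMP rises, and protein kinase A both releases fatty acids and, through the coactivator Ppargc1a, switches on Ucp1. The Ucp1 protein lets protons leak back across the inner mitochondrial membrane, so that fuel is oxidised without making ATP. The reproductive depot of mice is known as one that acquires such cells poorly.

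The question was which genes of this thermogenic programme differed with age in a white depot, library by library, and what else differed in the same libraries. All 17 measured thermogenic effectors, Ucp1 first among them, had a higher mean log2 level at 30 weeks, their regulators had a smaller median difference, and no gene passed the test over all genes. Of 82 genes in the lists of brown-type genes 69 were measured, 54 of them with a positive change, and the other 13 are not analysed here. Levels are normalised counts, and a change is the 30-week minus the 20-week mean of log2(value + 1) with sex as a covariate, with its standard error (SE). The limma test adjusted p-values over 13967 genes, and 0 genes (0%) had an adjusted p under 0.05. At an unadjusted p under 0.05, 639 genes (4.58%) were higher at 30 weeks and 699 (5%) were lower, and these shares are the background for the counts below.

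Cyclic AMP reaches genes through response elements whose core is TGACG, and the 250 bases upstream of the RefSeq start were searched for it on both strands in the build GRCm38.p6. Of the 30 thermogenic effectors and regulators measured, 23 had a promoter in the table, and 5 of these genes (21.7%) held the core in any promoter. Counted by single promoter, 17.8% of all 32851 held it. Some of the 23 genes had several promoters, Esrrg for example 4, so the shares differ in unit and are not compared. The 250 bases of Ucp1, on chromosome 8, are shown because Ucp1 had the largest change of the programme, and the shorter windows are those around the core in the other 4 genes. Capitals mark the core or its reverse complement.
Ucp1, chr8:83290098-83290347, plus strand: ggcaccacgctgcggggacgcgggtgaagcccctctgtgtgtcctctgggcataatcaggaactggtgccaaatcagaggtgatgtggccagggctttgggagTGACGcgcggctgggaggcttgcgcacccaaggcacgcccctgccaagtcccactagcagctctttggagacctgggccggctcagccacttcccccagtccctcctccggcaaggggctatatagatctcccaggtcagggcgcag
Fabp3, chr4:130308569-130308613, plus strand: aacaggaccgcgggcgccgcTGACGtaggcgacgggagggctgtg
Ppara, chr15:85735534-85735578, plus strand: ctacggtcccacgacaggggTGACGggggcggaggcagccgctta
Ppargc1a, chr5:51567750-51567794, minus strand: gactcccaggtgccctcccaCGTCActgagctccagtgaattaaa
Dio2, chr12:90739106-90739153, minus strand: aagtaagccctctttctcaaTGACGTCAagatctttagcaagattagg
The first base of the match lay 147 bases before the start in Ucp1, 149 in Fabp3, 222 in Ppara and 49 in Ppargc1a. In Dio2 matches on both strands overlap and spell the complete element TGACGTCA, which 1.55% of all promoters held. Otop1, Plin5, Cox8b and Prdm16, whose values follow, had no match in this window. A match is a description of letters and was not tested as a binding site.

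Defining genes of white fat were high in all 16 libraries. The leptin gene Lep ran from 32923 to 125730.0 and the adiponectin gene Adipoq from 20432 to 87811. Totals were 16477015 to 20803551 normalised counts per library, and a library's median correlation with the others was 0.949 to 0.976 across genes except for 1 library. That library, the 20-week female 699, correlated at 0.919 and had the lowest total. Its smooth muscle myosin gene Myh11 lay at 35231 and its oestrogen receptor gene Esr1 at 7895, where the other 15 libraries had at most 2242 for Esr1. The uterine-type genes Hoxa10 (3549) and Hoxa11 (943) were highest there too, and its Adipoq value of 33646 was the lowest of the 8 females. The 30-week male 631 had a Myh11 of 41412, while the other 14 libraries lay between 956 and 4307. Male 631 also had Hoxa10 at 233 and Hoxa11 at 89.0, where the other males had at most 23.8 and 1.71. The sum of 12 smooth muscle and pericyte markers was 140712 in female 699 and 130491 in male 631, beside 30726 to 62064 elsewhere. The 20-week male 542 and the 30-week male 552 had the lowest Adipoq (23109 and 20432) and the highest Adgre1, a macrophage marker (8746 and 12799). Beside the results below, values without female 699 are given for the changes and medians over both sexes that it moved by more than 1.5 times. In whole tissue, fewer cells of a type and less RNA per cell cannot be told apart.

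Ucp1 had a higher mean level at 30 weeks in both sexes, and at each age all 4 females lay above all 4 males. In 20-week females it lay at 69.4, 402, 474 and 1124, and in 30-week females at 6702, 5012, 1770.2 and 1115. In males the values were 37.1, 48.3, 56.9 and 7.25 at 20 weeks and 74.8, 699, 94.3 and 94.8 at 30 weeks. The highest 2 values were those of females 489 and 490, the 30-week males did not overlap the 20-week males, and the females overlapped by 1 library, since the 20-week female 761 (1124) lay just above the 30-week female 662 (1115). Among all genes, 0.823% had 30-week males entirely above 20-week males. Over both sexes the change was 2.65 (SE 0.62, limma adjusted p = 0.353), or 2.26 without female 699 and 2.37 without 699 and 631. The change was 3.02 in females alone and 2.27 in males alone.

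**Figure D1:**
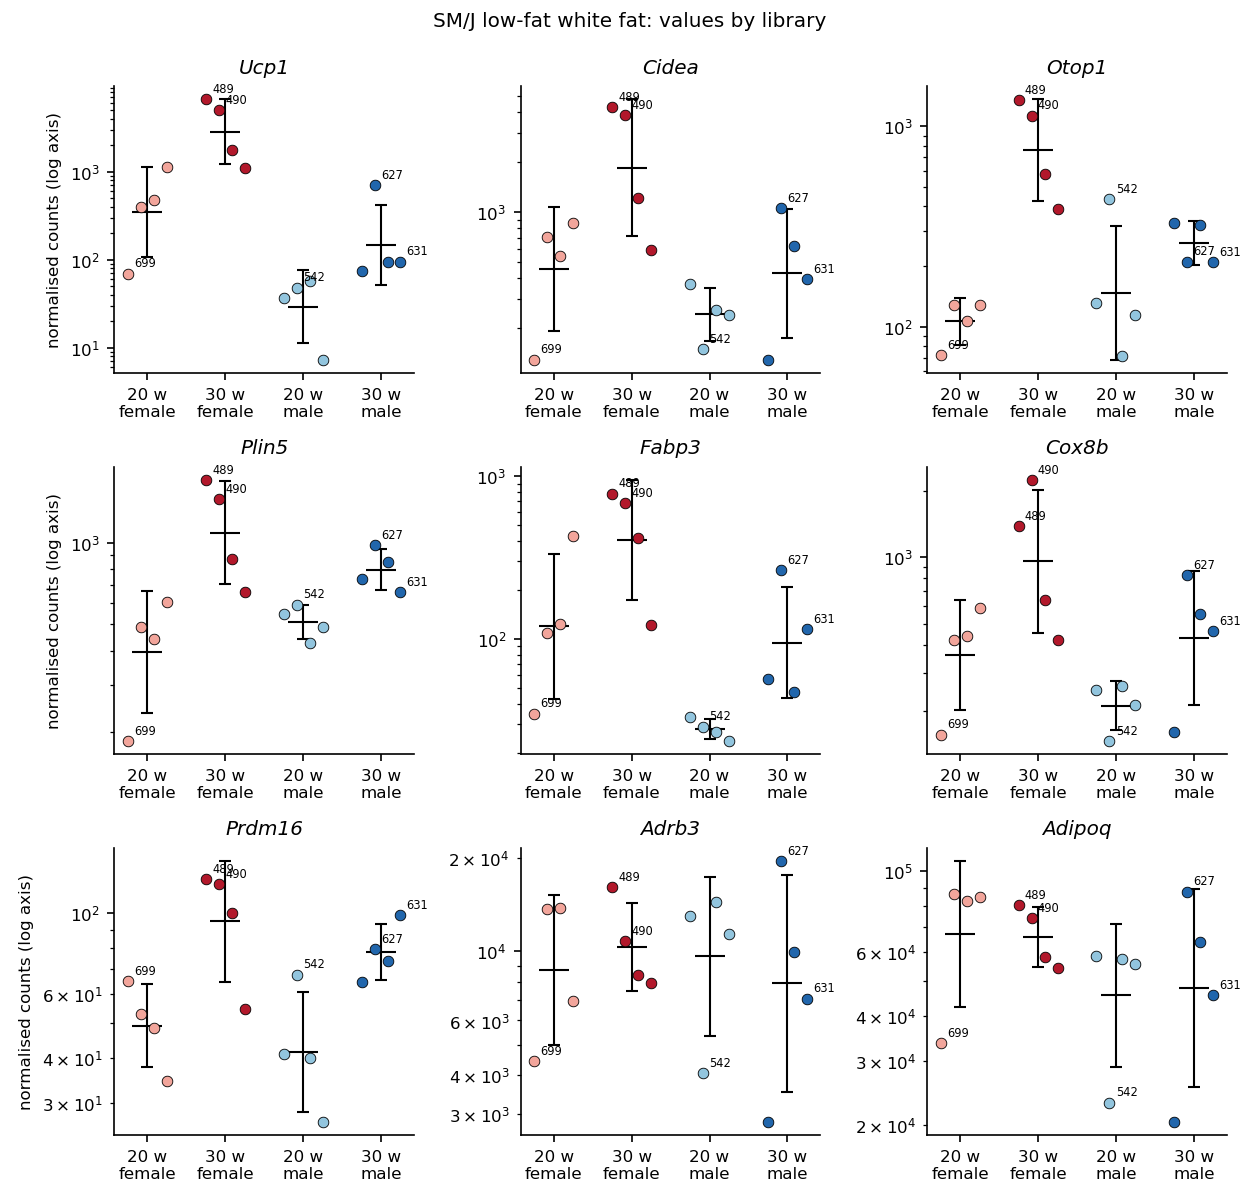
Normalised counts (log axes) of 9 genes in each of the 16 libraries, by age and sex. Points are libraries, some with their animal number, and the bars are the mean and SD on the log2 scale over 4 libraries. Ucp1 reaches 6702 and 5012 in the 30-week females 489 and 490, while Adrb3 and Adipoq overlap between the ages.

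The other effectors are a list of genes typical of brown adipocytes, among them droplet proteins, fatty acid carriers, and mitochondrial enzymes and carriers. Not every member makes heat itself, since the list also holds the secreted protein S100b and the potassium channel Kcnk3. A positive change is therefore not in each case a change towards heat production. Of 18 effectors listed 17 were measured, and all 17 had a positive change, with a median of 0.87 beside 0.00 over all genes, and 12 had an unadjusted p under 0.05, all of them higher. Leaving out any 1 library gave 16 or 17 positive effectors, 9 to 12 such genes and a median of 0.67 to 1.05, and without both 699 and 631 there were 10 with a median of 0.83. In 13 of the 17 genes the highest of the 16 libraries was female 489, and in 3 it was female 490. The exception was Dio2. Each of the 8 older libraries exceeded the median of the younger 8 for 4 effectors, Ucp1, Otop1, Fabp3 and Plin5, as they did for 2.55% of all genes.

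Otop1, a proton channel that is abundant in brown fat, had the second largest change. Its values were 72.3, 129, 107 and 129 in 20-week females and 1350.2, 1133, 576 and 386 in 30-week females. In males they were 132, 434, 71.2 and 115 at 20 weeks and 331, 212, 324 and 211 at 30 weeks. The females did not overlap, and in males the 20-week animal 542, at 434, lay above all 30-week males. The change was 1.83 (SE 0.41, limma adjusted p = 0.329), and without male 542 it was 2.15 with an adjusted p of 0.0659. Otop1 lies on chromosome 5 from 38275972 to 38304217 in mm10, and Ucp1 on chromosome 8 from 83290352 to 83298452.

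Plin5, which ties lipid droplets to mitochondria in tissues that oxidise fat, was the 1 effector in which neither sex overlapped between the ages. Females had 186, 488, 443 and 607 at 20 weeks and 1701, 1443, 869 and 661 at 30 weeks, and males had 548, 592, 428 and 489.6 at 20 weeks and 735, 980.0, 846 and 656 at 30 weeks. The change was 1.05 (SE 0.25, limma adjusted p = 0.353), and 0.85 without female 699, whose value of 186 was the lowest of all. Fabp3, the heart-type carrier of fatty acids in the cytoplasm, lay in females at 34.8, 109, 124 and 432 at 20 weeks and 781, 686, 415 and 121 at 30 weeks. In males it lay at 33.3, 29.0, 27.0 and 23.6 at 20 weeks and 57.0, 264, 47.3 and 114 at 30 weeks, with no overlap. Its change was 1.74 (SE 0.48, limma adjusted p = 0.411), nearly equal in females (1.75) and males (1.73).

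Cidea, a droplet protein long used as a brown fat marker, spread more within groups. Females had 129, 712, 543 and 859 at 20 weeks and 4311, 3838, 1224 and 592 at 30 weeks. Males had 367, 149, 257 and 241 at 20 weeks and 128, 1058, 625 and 394 at 30 weeks, where male 552 of 30 weeks was lower than every male of 20 weeks. The change was 1.43 (SE 0.52, limma adjusted p = 0.511). Cox8b and Cox7a1, the muscle-type subunits of cytochrome c oxidase that brown fat shares, had a similar order of libraries. Cox8b was in females 157, 421, 437 and 589 at 20 weeks and 1384, 2230.4, 638 and 423 at 30 weeks. In males it was 251, 147, 259 and 214 at 20 weeks and 161, 829, 553 and 462 at 30 weeks (change 1.21, SE 0.38). Cox7a1 averaged 124 ± 74.6 at 20 weeks and 290.2 ± 246 at 30 weeks (SD over 8 libraries per age, change 1.08). In both, females 489 and 490 were highest and female 699 was the lowest female.

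Elovl3, an elongase of fatty acids, lay at 297, 148, 38.9 and 63.7 in 30-week females and was at most 27.0 in every other library. The 20-week females had 11.5, 23.5, 9.32 and 27.0. Males had 15.3, 19.5, 4.65 and 14.3 at 20 weeks and 19.5, 23.2, 24.7 and 12.1 at 30 weeks, and the change over both sexes was 1.61 (SE 0.46). The mitochondrial protein gene Letmd1 was the fourth effector, with Otop1, Elovl3 and Plin5, in which 30-week females lay entirely above 20-week females, as 4.66% of all genes did. In males, Ucp1, Fabp3 and Plin5 were the 3 effectors without overlap. The remaining effectors had smaller changes. S100b, a calcium-binding protein that brown adipocytes secrete, had 0.69, the acyl-CoA thioesterase Acot11 0.64, the coenzyme A synthesis enzyme Pank1 0.37 and Letmd1 0.35, each with an unadjusted p under 0.05. Slc27a2, a fatty acid transporter (0.87), the glycerol phosphate dehydrogenase Gpd2 (0.44), the Ucp1 relative Ucp3 (0.38) and the potassium channel Kcnk3 (0.27) did not reach it. Without female 699 the changes were 0.25 for Letmd1 (unadjusted p = 0.104), 0.64 for Acot11 (unadjusted p = 0.0552), 0.28 for Gpd2, 0.11 for Ucp3 and 0.14 for Kcnk3, and that of Slc27a2 was 0.51 without 699 and 631. Dio2, which activates thyroid hormone, was the exception in library order: female 699 had 1982 and the other 15 libraries at most 121. Its arithmetic mean was lower at 30 weeks (61.9) than at 20 weeks (274), while its change on the log2 scale was 0.19. Without female 699 the change was 0.93 (SE 0.35, unadjusted p = 0.0171, limma adjusted p = 0.595), and without 699 and 631 it was 1.06.

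**Figure D2:**
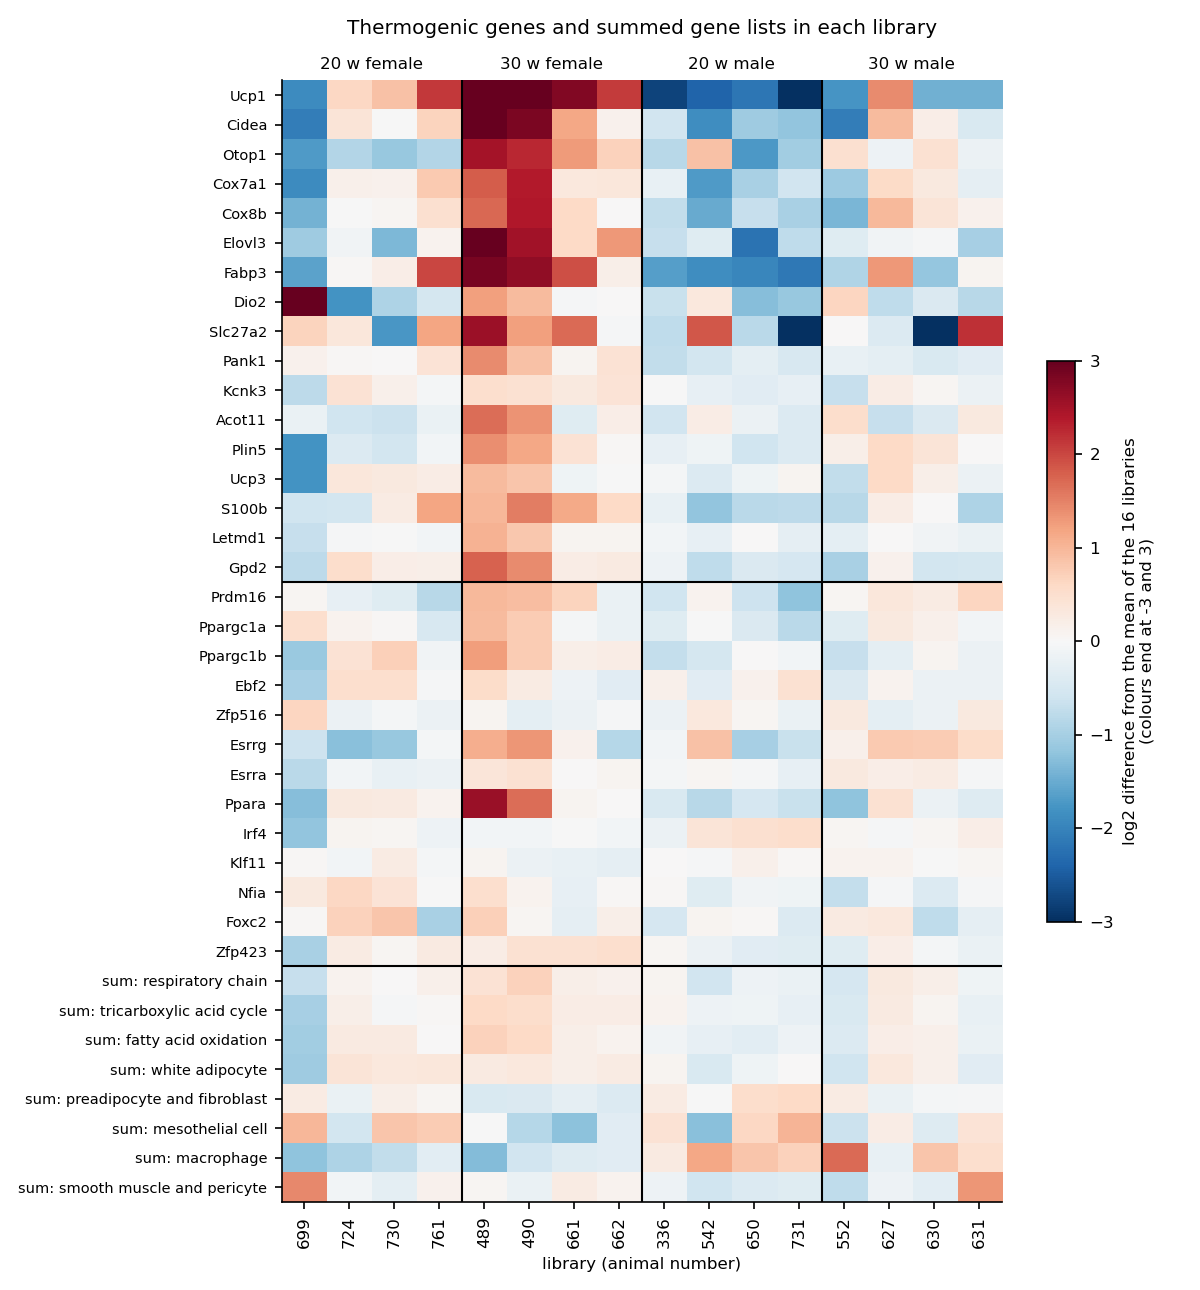
Log2 difference of each library from the mean of the 16 libraries, for 17 effectors and 13 regulators (upper blocks) and for the summed level of 8 gene lists (lower block), with libraries in columns by age and sex and colours ending at -3 and 3. The highest library is 489 or 490 for 16 of the 17 effectors, and the smooth muscle sum stands out in female 699 and male 631.

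Most effectors had a larger change in females than in males, and no gene passed the test of that difference. In females alone all 17 effectors were positive with a median of 1.26, and in males alone 15 were positive with a median of 0.48. The male-minus-female difference was negative for 16 of 17 effectors, with a median of -0.71. Otop1 (-2.0, SE 0.67), Elovl3 (-1.96, SE 0.80) and Letmd1 (-0.71, SE 0.29) had an unadjusted p under 0.05, as 2.54% of all genes did in that direction. The limma adjusted p was at least 0.827 for every gene. Without female 699, 14 effectors were negative with a median of -0.46, and the difference for Ucp1 went from -0.76 (SE 1.27) to 0.02 (SE 1.15). Only 1 effector in place of 3 then had an unadjusted p under 0.05, Otop1 (-1.82, limma unadjusted p = 0.0196). Without male 631 there were 2.

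**Figure D3:**
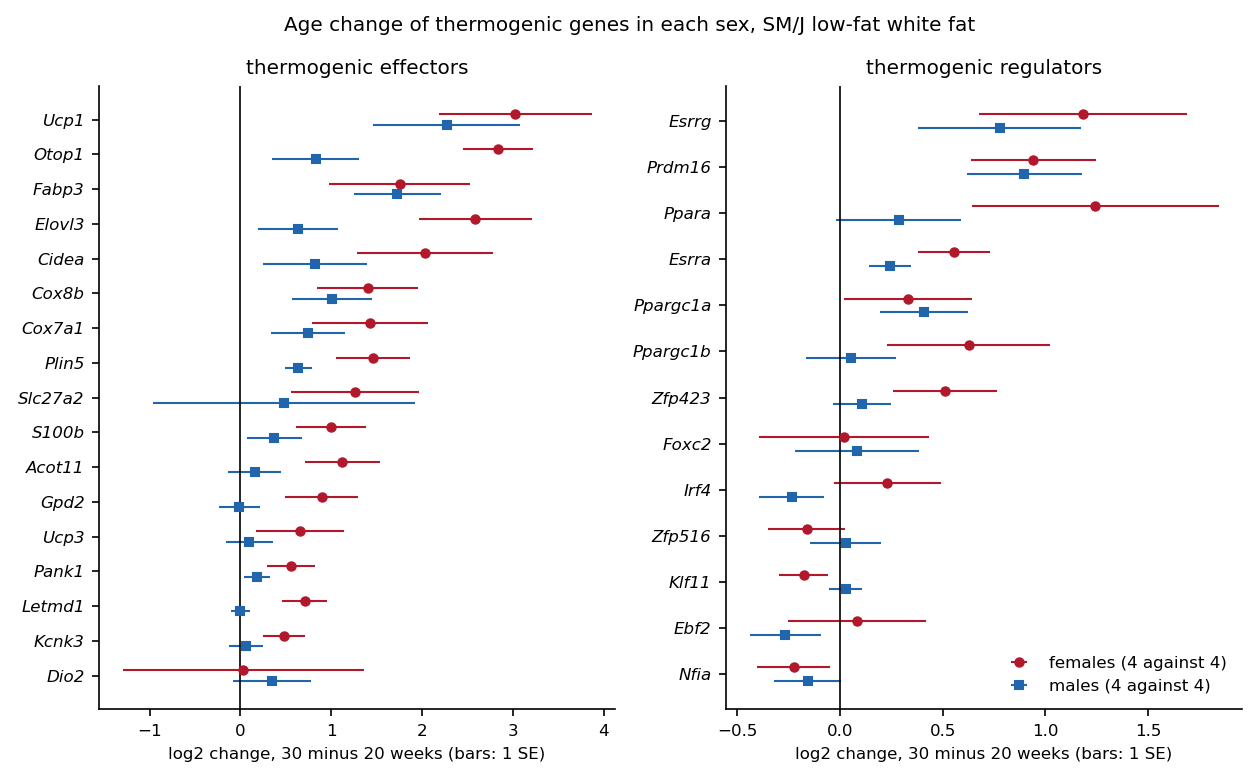
Change with age (30 minus 20 weeks, log2, bars of 1 SE) of 17 thermogenic effectors and 13 regulators in females and in males, 4 against 4 libraries each. Fabp3 and Prdm16 have nearly the same change in both sexes, while Otop1 is at 2.83 in females and 0.83 in males.

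Transcription factors and coactivators that act on the brown programme had a smaller median change than its effectors. The list includes Zfp423, which acts against the programme, so its positive sign is not a change towards it. Of 16 regulators listed 13 were measured, and 8 of these were positive, with a median of 0.31, and Prdm16, Esrrg and Esrra had an unadjusted p under 0.05. Without female 699 the median was 0.15, with 9 positive and 4 at an unadjusted p under 0.05, Ppargc1a (0.44) being the fourth. That count was 5 without female 661 or 662 and 6 without male 552. Prdm16, which directs precursors to the brown fate, lay at 65.1, 52.9, 48.4 and 34.6 in 20-week females and 124, 120.1, 100.01 and 54.6 in 30-week females. In males it lay at 41.1, 67.8, 40.0 and 26.7 at 20 weeks and 64.6, 79.6, 73.7 and 98.9 at 30 weeks. All 8 values of 30 weeks were above the 20-week median, females overlapped by 1 library of each age, and the change was 0.92 (SE 0.21, limma adjusted p = 0.329). It was 0.90 in males and 0.94 in females. Esrra and Esrrg, orphan nuclear receptors that drive mitochondrial genes, had changes of 0.40 (SE 0.11) and 0.98 (SE 0.33). Esrra was higher in all 4 females of 30 weeks than in any of 20 weeks.

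Ppargc1a averaged 87.4 ± 25.7 at 20 weeks and 115 ± 40.4 at 30 weeks (SD over 8 libraries per age), a change of 0.37 (SE 0.19, limma adjusted p = 0.542). Its highest values, 187 and 164, were again those of females 489 and 490, and the third highest, 136, was that of female 699. Ppara, the nuclear receptor for fatty acids, was 1330.5, 707, 234 and 223 in 30-week females, so that 489 and 490 stood apart from all other libraries, whose values were at most 302. In the other groups Ppara lay at 90.3, 270.2, 266 and 238 in 20-week females, 162, 123, 155 and 139 in 20-week males and 95.4, 302, 195 and 169 in 30-week males. Ppargc1b (0.34) and Zfp423 (0.31), which holds white adipocytes in the white state, were positive without reaching an unadjusted p of 0.05, and without female 699 they were at 0.15 and 0.16. Ebf2 (-0.09), Zfp516 (-0.07), Irf4 (-0.00), Klf11 (-0.08), Nfia (-0.19) and Foxc2 (0.05) lay near 0. Without female 699 Ebf2 was at -0.26, Irf4 at -0.16 and Zfp516 at 0.03. Over effectors and regulators together the median was 0.42, or 0.80 in females alone and 0.26 in males alone.

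Genes of the adrenergic and hormonal input had no common direction, with 10 of 16 positive and a median of 0.07, or 6 of 16 and -0.07 without female 699. Adrb3, the β3-adrenergic receptor of mouse adipocytes, was in females 4449, 13717, 13783 and 6922 at 20 weeks and 16110.0, 10760.0, 8372 and 7906 at 30 weeks. In males it was 13014, 4058, 14385 and 11333 at 20 weeks and 2833, 19503, 9977 and 7054 at 30 weeks. The groups overlapped throughout (change -0.02, SE 0.37, or -0.19 without female 699), and the low values were those of 699, 542 and 552, the libraries with low Adipoq. Adra1a, an α1-adrenergic receptor, lay at 322, 544, 512 and 419 in 20-week and 755, 695, 662 and 542 in 30-week females. Its male values were 415, 497, 376 and 343 at 20 weeks and 662, 454, 549.9 and 477 at 30 weeks, and the change was 0.49 (SE 0.12, limma adjusted p = 0.392). All 8 values of 30 weeks were above the 20-week median, and females overlapped by 1 library of each age. Gnas, for the stimulatory G protein, lay in females at 239, 292, 286 and 403 at 20 weeks and 518, 486, 419 and 505 at 30 weeks. In males it lay at 415, 429.9, 428 and 231 at 20 weeks and 409, 544, 403 and 489.6 at 30 weeks (change 0.50, SE 0.14). Other transcripts overlap Gnas and the strand setting of the counting is not given in the sources used here, so its value is uncertain. The adenylyl cyclase Adcy3 had 0.30, and the other 12 genes lay between -0.16 (Creb1) and 0.23 (Prkar2b). Without female 699 these 12 lay between -0.25 (Pde3b) and 0.06 (Prkaca), with Creb1 at -0.08 and Prkar2b at 0.04. Fgfr1 was then lower, at -0.20 (limma unadjusted p = 0.00735, adjusted p = 0.523).

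Of the genes for heat production without Ucp1, Ryr2, the calcium release channel used in calcium cycling, stood out. Its values in females were 392, 181, 271 and 318 at 20 weeks and 701, 767, 951 and 511 at 30 weeks. In males they were 326, 443, 523 and 336 at 20 weeks and 329, 639.8, 754 and 902 at 30 weeks. The females did not overlap, 7 of 8 libraries of 30 weeks were above the 20-week median, and the change was 0.99 (SE 0.22, limma adjusted p = 0.329). The calcium pump Atp2a2 (0.16), the creatine genes Ckb (0.10), Gatm (0.02) and Gamt (0.10), the phosphatase Alpl (0.22) and Ryr1 (-0.29) did not reach an unadjusted p of 0.05. Without female 699 Ckb was at 0.25, Gatm at 0.06, Gamt at -0.00 and Ryr1 at -0.50. Of 6 measured beige-selective markers 4 were positive (median 0.11, or 0.02 without female 699), and Hoxc9 (0.51) reached it, though not without female 699 (0.37). The beige marker Tmem26 had -0.69, with its highest value, 190, in female 699, and -0.30 without that library. Factors secreted by brown fat were positive in 9 of 10 cases with a median of 0.22. Gdf15, a stress hormone, had 0.63 and an unadjusted p under 0.05, with its highest value, 71.5, in male 552. Fgf21, a hormone of fasting and cold, was at most 30.6 in any library (change 0.76, SE 0.42). Its lowest value, 1.14, was that of female 699, without which the change was 0.34 (SE 0.21).

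Genes of fuel oxidation had positive changes throughout, of a smaller size. The change was positive for 33 of 33 respiratory chain genes (median 0.29), 14 of 14 of the tricarboxylic acid cycle (median 0.33), 20 of 20 of fatty acid oxidation (median 0.34) and 13 of 13 of peroxisomes (median 0.22). Of these, 11, 9, 11 and 4 had an unadjusted p under 0.05, none of them lower. The signs were the same with the libraries rescaled by median ratios. The complex III gene Uqcrc1 lay at 5055 ± 1126 and 7313 ± 1945 (SD over 8 libraries per age, change 0.53, limma adjusted p = 0.472), and the trifunctional protein gene Hadha of fatty acid oxidation at 6782 ± 1193 and 9481 ± 2651 (change 0.47). Idh2 (0.33) and Idh3b (0.48) were examples from the tricarboxylic acid cycle, and Acaa2 (0.55) and Acadm (0.39) from β-oxidation.

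These counts rested on few libraries, and the background over all genes moved with them. Genes at an unadjusted limma p under 0.05 in either direction numbered 1338 with all libraries. They numbered 766 without female 490, 1040 without female 699 and 1807 without male 552. For the respiratory chain the count of 11 became 2 without female 490, 3 without female 699, male 542 or male 627, 4 without female 489, 5 without male 630 and 7 without female 730. It became 18 without male 336 and 22 without male 552. For the tricarboxylic acid cycle it was 4 without female 699, 489 or 490, against 12 without male 552 or 631. For fatty acid oxidation it was 5 without 489 or 490 and 6 without 699 or 627, against 12 without 336, 731, 662 or 631 and 16 without 552. For peroxisomes the count of 4 became 2 without 699, 542, 731, 490, 661 or 627 and 9 without 552, and without 699 the median was 0.14 with 11 of 13 positive. With any 1 library left out, 32 or 33, 13 or 14, and 19 or 20 genes of the first 3 lists were positive. The summed level of the respiratory chain was lowest in female 699 (104578), male 542 (112998) and male 552 (118462), the libraries with low adipocyte genes, and highest in female 490 (269598) and female 489 (225577). White adipocyte genes themselves had 11 of 17 positive with a median of 0.10 and 0 at an unadjusted p under 0.05, and the median was -0.11 without female 699, -0.02 without male 542 and -0.03 without male 627.

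Genes of fat storage and sugar use had larger medians in females, and the difference between the sexes was not tested for lists. Lipolysis and droplet genes were positive in 16 of 17 cases (median 0.21) and glycolysis genes in 16 of 17 (median 0.22). Without female 699 the first list had 13 positive, a median of 0.02 and 0 in place of 2 genes at an unadjusted p under 0.05, and without male 552 its median was 0.335. The glycolysis list had a median of 0.15 without female 699 and 0.34 without male 552. Its count of 4 genes at an unadjusted p under 0.05 became 1 without female 490 and 2 without 489, 661 or 662. With all libraries the medians were 0.53 and 0.47 in females alone, 699 among them, and -0.04 and 0.01 in males alone. The droplet coat gene Plin2 lay at 22392 ± 11407 and 29500.0 ± 11385 (SD over 8 libraries per age) and the glycolytic enzyme gene Pfkl at 3511 ± 786 and 5042 ± 1501. Fatty acid synthesis genes had 8 positive and 8 negative changes. Lep was 32923, 42655, 45355 and 92667 in 20-week and 50980.0, 82703, 125460.0 and 125730.0 in 30-week females. In males it was 65892, 72865, 63511 and 69992 at 20 weeks and 60229, 62913, 86599 and 46001 at 30 weeks, with overlap in both sexes (change 0.37, SE 0.27, limma adjusted p = 0.646), and without female 699 its change was 0.25.

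**Figure D4:**
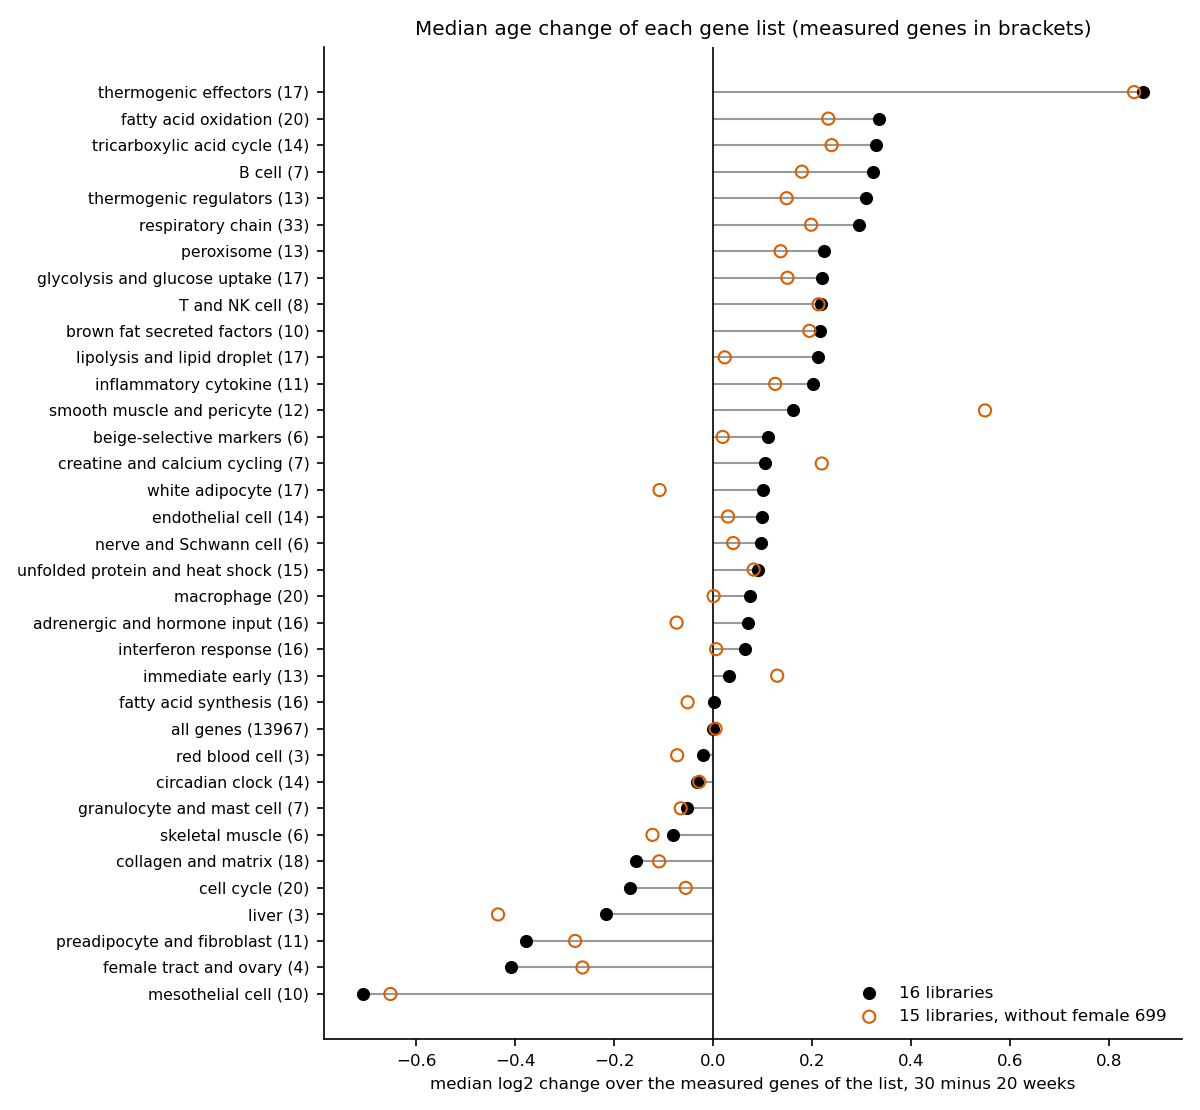
Median change with age (30 minus 20 weeks, log2) over the measured genes of each list, with all 16 libraries (filled) and without female 699 (open). Thermogenic effectors stay at 0.87 and 0.85, while white adipocyte genes go from 0.10 to -0.11 and smooth muscle genes from 0.16 to 0.55.

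Markers of the mesothelium, the sheet of cells that covers the depot, and of fibroblast-like precursors had lower mean levels at 30 weeks. All 10 measured mesothelial genes had a negative change, with a median of -0.71, and 4 had an unadjusted p under 0.05 with all libraries. That count was 1 without 699, 730, 761, 731, 490 or 661, 2 without 336, 650, 552 or 630, 7 without 724 or 627, and 8 without 542, while the change stayed negative for all 10 in each case. Gpm6a was in females 1669.7, 701, 2026 and 1892 at 20 weeks and 914, 364, 315 and 759.8 at 30 weeks. In males it was 1619.6, 392, 1469 and 2737 at 20 weeks and 755, 1486, 921 and 917 at 30 weeks. All 8 values of 30 weeks lay below the 20-week median, as they did for 442 of all 13967 genes (change -0.90, SE 0.38). The mesothelial transcription factor gene Wt1 (-0.71) and Lrrn4 (-0.69) were lower too. The sum over the 10 genes ran from 3103 to 15082 at 20 weeks and from 3161 to 9975 at 30 weeks. Its part in the thermogenic result was not tested.

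Of 11 preadipocyte and fibroblast markers 10 had a negative change, with a median of -0.38, and 4 had an unadjusted p under 0.05 with or without female 699. They were Cd34, which lay at 4115 ± 871 and 2993 ± 336 (SD over 8 libraries per age, change -0.44), Dpp4 (-0.60), Cd248 (-0.45) and the proteoglycan gene Dcn (-0.38). The list's sum ran from 47808 to 83298 at 20 weeks and from 39990 to 65695 at 30 weeks, and 489, 490, 662 and 661 had the lowest 4 sums. Collagen and matrix genes were negative in 13 of 18 cases (median -0.16), with fibronectin, Fn1, at 17491 ± 5467 and 11823 ± 4792 (change -0.60, limma adjusted p = 0.378). Col14a1, a collagen of the fibril surface, had the smallest p among lower genes. In females it lay at 5825, 3730.1, 3883 and 3760.4 at 20 weeks and 2794, 2619, 2092 and 1957 at 30 weeks. In males it lay at 5757, 4941, 6937 and 6902 at 20 weeks and 5725, 3168, 3359 and 4717 at 30 weeks (change -0.71, SE 0.14, limma adjusted p = 0.329). Its 30-week females lay below all 20-week females, and the share of all genes that did so was not computed. Male 552 was the 1 library of 30 weeks above the 20-week median. The gap junction gene Gja1 (-0.43), the sphingomyelinase gene Smpd3 (-0.71), the Wnt inhibitor gene Sfrp4 (-0.97), the prostacyclin synthase gene Ptgis (-0.67) and Nox4 (-0.56), which makes hydrogen peroxide, were others of the 10 lower genes named by rule. Beside Otop1, Ryr2, Plin5 and Ucp1, the higher genes named by rule were the insulin receptor adaptor gene Grb14 (0.69), Tbrg4 (0.33), Hyal2 (0.33), Eif3d (0.28), Unc79 (0.76) and Fam20c (0.43).

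Marker lists of other cell types had medians nearer 0 than that of the effectors, except for the 2 epithelial genes. Of 20 macrophage markers 14 were positive with a median of 0.08 (0.00 without female 699), and 1 was lower at an unadjusted p under 0.05, the haemoglobin receptor gene Cd163 (-0.41). Adgre1 was in females 1192, 1227, 1346 and 2294 at 20 weeks and 1042, 1899.5, 2563 and 2632 at 30 weeks. In males it was 3746, 8746, 5354 and 4462 at 20 weeks and 12799, 2436, 6381 and 4353 at 30 weeks, with overlap in both sexes. The macrophage sum was 33483 to 65866 in the 8 females and 71304 to 270479 in the 8 males. Smooth muscle markers had 11 of 12 positive with 0 at an unadjusted p under 0.05, and their median of 0.16 became 0.55 without female 699 and 0.13 without 699 and 631. Endothelial genes had a median of 0.10, with Egfl7 (0.21) and Erg (0.21) at an unadjusted p under 0.05, and a median of 0.03 with 0 such genes without female 699 (Erg at 0.14). The 6 measured nerve and Schwann cell genes had a median of 0.10 (0.04 without female 699), and S100b, which the effector list also holds, was the 1 with an unadjusted p under 0.05. The 4 measured female tract and ovary markers were all lower (median -0.41, or -0.26 without female 699), and Esr1, highest in female 699, had -0.71, or -0.44 without it. The 2 measured epithelial genes had lower means, Krt7 (change -0.73, unadjusted p under 0.05) and Krt14 (-1.12). Of the lists for T and NK cells (8 measured), B cells (7), granulocytes and mast cells (7), skeletal muscle (6), red blood cells (3), liver (3), the cell cycle (20), interferon response (16), inflammatory cytokines (11) and the circadian clock (14), none had a member at an unadjusted p under 0.05. Immediate early genes had 1 lower of 13 (Ier3, -0.44) and stress genes 1 higher of 15 (Ddit3, 0.41).

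What went with Ucp1 from library to library was described after each group's mean was removed on the log2 scale, over the 16 libraries, with r as a description only. Of the effectors, Fabp3 followed Ucp1 most closely (r = 0.85, and 0.79 over the 15 libraries without female 699), then Plin5 (0.79 and 0.68), Cidea (0.76 and 0.66), Letmd1 (0.76 and 0.66), Gpd2 (0.74 and 0.65) and Cox8b (0.73 and 0.65). Otop1, which had the next largest change with age, followed it less (0.36 and 0.28), as did Elovl3 (0.40 and 0.36), and Ryr2 was at 0.10 and 0.36. Among regulators Ppara was at 0.74 and 0.66, and Ppargc1a at 0.31, or 0.65 without 699. Of the input genes Gnas had the highest r (0.80 and 0.77). Among 10674 genes with a mean of at least 100, the nearest to Ucp1 were Fam210b (0.89), the mitochondrial transport gene Rhot2 (0.89), Tmem204 (0.89), the mitochondrial ubiquitin ligase gene Mul1 (0.89) and Mars (0.88). The mitochondrial genes Mtif3 (0.87), Aldh2 (0.87), Lonp1 (0.86) and Idh3b (0.86) were among the first 15. The others of the 15 were Vwa3a, Ccm2, Pskh1, Actr1b, Stk11 and Zfp36, at 0.86 to 0.88. The share of mitochondrial genes among all ranked genes was not computed. The lowest was Hpf1 (-0.91). All of these share libraries, scaling and the low Ucp1 of female 699.

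No list of other cells or states passed when its summed level was set against Ucp1 in the same way. Of 21 lists, 0 passed with Benjamini-Hochberg adjustment over 100000 permutations within groups, and the smallest adjusted p was 0.217. White adipocyte genes had r = 0.60 (rho = 0.52, permutation p = 0.0561 and 0.0685, adjusted p = 0.217 and 0.24), and endothelial genes r = 0.59 (rho = 0.47, permutation p = 0.0576 and 0.103, adjusted p = 0.217 and 0.308). Unfolded protein and heat shock genes had r = -0.63 (rho = -0.60, permutation p = 0.0313 and 0.0346, adjusted p = 0.217 and 0.24). Cell cycle genes had r = -0.63 (rho = -0.58, permutation p = 0.0256 and 0.0417, adjusted p = 0.217 and 0.24). Without the 2 libraries farthest from the median Ucp1, 489 and 490, these 4 values became 0.63, 0.66, -0.59 and -0.58. Without female 699 they became 0.32, 0.39, -0.48 and -0.53. Smooth muscle genes had r = -0.39, or -0.08 without 699, and macrophage genes -0.25 and -0.48. With the summed white adipocyte genes as a covariate the change of Ucp1 with age was 2.39, and with the macrophage sum 2.69, beside 2.65 without a covariate.

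The brown fat of the same 16 animals gave a scale for these levels, although its table was scaled separately. In brown fat Ucp1 lay between 47264 and 109250. White fat held 6.13% of the same animal's brown fat value in female 489, 5.42% in 490, 1.98% in 661 and 1.27% in 662. Male 627 had 0.869%, the 20-week female 761 had 1.45%, and male 731 had 0.00685%. The share was not the same for all brown genes: in female 489 it was 9.66% for Cidea, 10.1% for Cox8b, 12.8% for Otop1 and 26.7% for Prdm16. For Otop1 it was 7.36% in male 542, where Ucp1 was at 0.102%. The regulators Nfia (114%), Klf11 (160.2%) and Zfp423 (315%) had about the level of brown fat or more in the same female, and Ebf2 had 97.0%.

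The change in white fat was set against that in brown fat of the same animals, in a limma test of the tissue difference of each animal. All 17 effectors had a larger change in white fat, with a median difference of 0.80, and 12 had an unadjusted p under 0.05, beside 3.83% of 12496 genes that were positive at that level. The differences were 2.70 for Ucp1 (SE 0.63, limma adjusted p = 0.305), 1.85 for Otop1 (SE 0.42, adjusted p = 0.305) and 0.97 for Plin5 (SE 0.22, adjusted p = 0.294). Adra1a had the smallest adjusted p of all genes (0.76, SE 0.12, adjusted p = 0.0598). Its own change was -0.27 (SE 0.09) in brown fat. Adra1a passed when animal 699, 336, 542, 662, 552, 627 or 631 was left out, with adjusted p-values of 0.0125 to 0.0435. Without animal 542, 12 genes passed, and Igfbp6 had the smallest limma adjusted p (-1, adjusted p = 0.000725). Beside Adra1a they held Otop1 (2.24, limma adjusted p = 0.00388), Elovl3 (2.34, adjusted p = 0.025) and Ppargc1a (0.78, adjusted p = 0.0214). The others were Islr, Islr2, Cd248, Tmem176b, Zcwpw1, Trdn (4.64) and Casq1 (2.51) of the skeletal muscle list. Within brown fat 9 of 17 effectors were positive with a median of 0.00 and 0 with an adjusted p under 0.05. The calcium and creatine cycling genes Ryr1 (-3.44), Atp2a1 (-3.31) and Ckmt2 (-3.17) had large negative changes in brown fat (limma adjusted p of 0.132 to 0.146). Whether muscle in the brown fat samples had a part in the tissue differences was not tested.

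On the high-fat diet the effectors had no common direction in SM/J white fat. There 6 of 16 measured effectors were positive with a median of -0.06, and Ucp1 lay at 746 ± 758 at 20 weeks and 526 ± 302 at 30 weeks (SD over 8 libraries per age). The change on the low-fat diet minus that on the high-fat diet was positive for 16 of 16 effectors, with a median of 0.86, and 9 had an unadjusted p under 0.05, beside 1.99% of 13715 genes. The difference was 1.89 for Otop1 (SE 0.44, limma adjusted p = 0.395) and 2.75 for Ucp1 (SE 0.90, adjusted p = 0.717). Without male 542 Otop1 passed (2.21, limma adjusted p = 0.00554), the only gene that did. Otop1 itself averaged 685 ± 213 and 646 ± 132 on the high-fat diet, in a table scaled separately.

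In LG/J mice on the low-fat diet the change of Ucp1 was 1.66 (SE 0.92), and the difference between the strains was 0.98 (SE 1.17, limma adjusted p = 0.837), or 0.60 without female 699. Within LG/J 10 of 14 measured effectors were positive, with a median of 0.185 and 0 with an adjusted p under 0.05. Cidea was among them (0.76), and the regulator Ppargc1a had 0.60 there, with a difference between the strains of -0.23. Otop1 (-0.73) and Fabp3 (-1.17) had negative changes in LG/J. Their differences between the strains were 2.56 (SE 0.70, limma adjusted p = 0.675) and 2.91 (SE 0.89, limma adjusted p = 0.675). All 14 measured effectors had a positive difference, with a median of 0.70, and 4 had an unadjusted p under 0.05, beside 3.17% of 13623 genes. Without female 699 it was 13 of 14 with a median of 0.435 and 3 such genes. The 3 interactions share the same 16 libraries, so they are not independent of each other. The 1 gene that passed between the strains was Gja1, with 2125 ± 692 and 1596 ± 578 in SM/J and 956 ± 294 and 1263 ± 244 in LG/J (SD over 8 libraries per age, difference -0.86, SE 0.15, limma adjusted p = 0.0402), and it passed without 5 of the 16 SM/J libraries and not without the other 11.

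**Figure D5:**
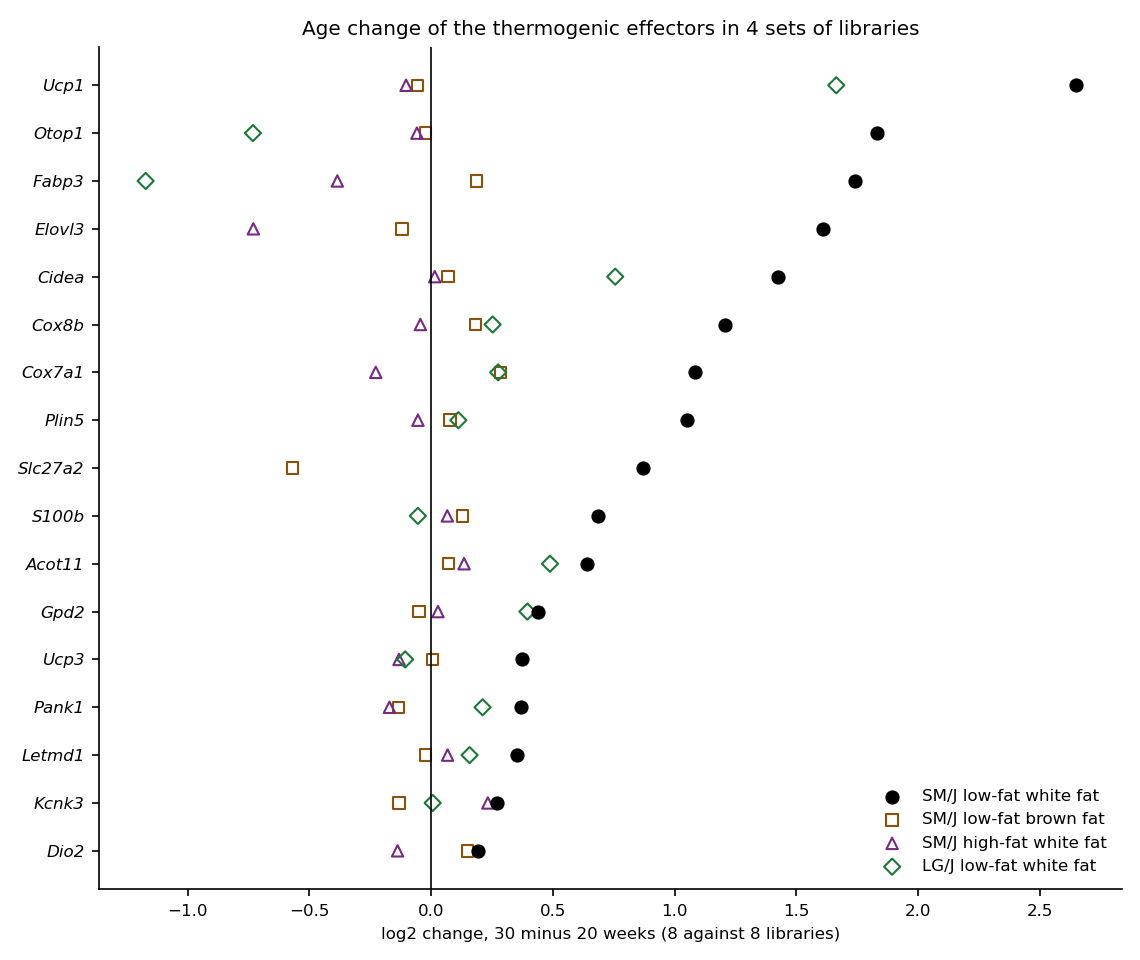
Change with age (30 minus 20 weeks, log2) of the 17 thermogenic effectors in SM/J low-fat white fat and, where measured, in brown fat of the same animals, in SM/J high-fat white fat and in LG/J low-fat white fat, 8 against 8 libraries each. The filled points of SM/J low-fat white fat lie right of all others for each gene, from 0.19 for Dio2 to 2.65 for Ucp1.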

How the data were processed

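RNA of reproductive white fat was sequenced by the submitters after ribosomal RNA removal. Per the submitters' processing notes, STAR 2.6.0c, the build mm10 and edgeR were used. The values that the authors deposited are normalised counts, a signal scaled within each table, and not whole reads, so the depth in reads is unknown and no interval was computed from it. X, Y and mitochondrial genes are not analysed here. Gene IDs were named from GENCODE M21 (140 of 13967 had no symbol). The comparison used log2(value + 1) in limma 3.58.1 (R 4.3.3) with sex as a covariate and Benjamini-Hochberg adjustment over all genes. The interactions with diet and strain used both tables, and that with tissue used each animal's white-minus-brown difference, since the labels give both tissues the same animal numbers (median correlation of an animal's deviations between its tissues 0.191).

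Members and lists were chosen with earlier results of these data known. Genes outside the lists were named by rule: with a mean of at least 100 and the same sign in both sexes, the 10 with the smallest p in each direction, and for each other list the 4 with the smallest p. Relations to Ucp1 used deviations from the age-by-sex means. Promoters came from RefSeq on GRCm38.p6. Alternatives covered the pseudocount, filter, scaling, variance fit, sex term, each library left out, and cell-marker covariates added after the data were seen.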

Additional observations from a re-analysis of the deposited data

Results flagged for a closer look

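In each group of 4 libraries, a library was singled out when its gap to the nearest other was a larger share of the group's whole range than Dixon's critical value for 4 libraries. Of 120 such groups, 11 met this, in 6 libraries. Chance gives about 5% for independent groups, which these are not. The items come from the same libraries, and Adipoq is also part of the white adipocyte sum, so that rate is a rough guide only. The share of the range is given for each of the 11. Female 699 of 20 weeks accounted for 6 of them. It was lowest for Ppara (0.884), Adipoq (0.95), summed white adipocyte genes (0.949) and summed respiratory chain genes (0.851), and highest for Col14a1 (0.91) and summed female tract and ovary genes (0.84). Male 627 was the highest 30-week male for Ucp1 (0.894). Male 731 was the lowest 20-week male for Gnas (0.944) and male 542 for Adipoq (0.946). Female 724 was lowest for summed mesothelial genes (0.844), and female 489 highest for summed female tract and ovary genes (0.949). The change of Gja1 with age differed between SM/J and LG/J mice (-0.86, limma test of the interaction).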

How the results depend on the processing

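Of 277 values recomputed under other settings, 252 stayed within their limits, among them all 108 for Ucp1, Otop1, Cidea and Ppargc1a. These limits were wide for single genes. The Otop1 changes of 0.83 in males alone and 2.83 in females alone counted as within them, beside 1.83 in the main fit. Over its 27 alternatives the change of Ucp1 ran from 2.26 to 3.02 (adjusted p 0.163 to 1) and that of Otop1 from 0.83 to 2.83 (0.0659 to 1). The number of genes past the adjusted threshold with age was 0 in each. At an unadjusted p under 0.05 there were 766 to 1807 genes with 1 library left out (766 without female 490, 889 without female 661) and 338 in males alone. The median over effectors and regulators was 0.34 to 0.53 with 1 library left out, and 0.80 in females alone. Genes past the threshold numbered 0 to 1 for age by sex (Pcdh12 without female 489), 0 to 1 for diet (Otop1 without male 542), 0 to 12 for tissue (2 without 699, 4 without 336 or 662, 12 without 542, 5 without 552, 1 without 627 or 631) and 0 to 1 for strain. Gja1 was lost without 699, 730, 761, 336, 542, 731, 490, 661, 627, 630 or 631, and without both 699 and 631 the count was 0, an alternative chosen after seeing the data. Why these libraries matter was not tested. For tissue, the fit without the replicate block, which leaves the animals unpaired, called 0 genes, with adjusted p-values of 0.497 for Ucp1 and 0.402 for Otop1. Read depth is unknown, so its limits cannot be given.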
